A study of Drosophila melanogaster with 6 samples.

Results

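Aminoacyl-tRNA synthetases are the enzymes that join each amino acid to its transfer RNA, and their genes are described here in the midgut, the main digestive and absorptive stretch of the intestine, of adult female and male Drosophila melanogaster. Members were the genes whose current FlyBase symbol is an amino acid code followed by RS, with the ending -m for the enzymes of the mitochondrion. Of 35 symbols that fit this pattern, 33 had their current identifier in the count tables, out of 15682 identifiers in all, 19 of them cytosolic and 14 mitochondrial. LeuRS and PheRS-m were not analysed here because the tables and the name table did not share an identifier for them. The 6 libraries came from virgin w1118 flies, a white-eyed laboratory strain, aged 15 days and held at 29 °C, with 3 libraries of females and 3 of males, each made from 30 pooled midguts. Strain, age, mating status and temperature were the same for both sexes, and the labels name no allele beyond the strain background. The names of the deposited tables also carry the letters ESG, which the labels do not explain, so whether the flies carried a further construct is not known here. The labels do not say whether the replicates of a sex were separate cultures, so each p-value reflects the variation among pools of midguts, which could be technical in part.

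A synthetase sets the accuracy of translation, since the ribosome reads the transfer RNA and not the amino acid it carries. Nuclear genes code for the cytosolic and the mitochondrial enzymes, and the enzymes fall into class I and class II, which have unrelated catalytic folds. In animals several cytosolic enzymes sit with the scaffold proteins AIMP1, AIMP2 and AIMP3 in a large multi-synthetase complex. The gut epithelium makes large amounts of secreted digestive enzymes, and when a synthetase substrate runs short the uncharged transfer RNA activates the kinase Gcn2, which raises translation of the transcription factor ATF4, called crc in flies. In mammals many cytosolic synthetase genes are themselves ATF4 targets.

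Levels are given in CPM, counts relative to library size, scaled by TMM, a factor per library that evens out composition. Differences are log2 ratios of female over male, each with its standard error, from the quasi-likelihood test of edgeR with Benjamini-Hochberg adjusted p over all 8941 genes tested, and a gene was called at an adjusted p under 0.05. Total counts ran from 23825935 to 38406746 per library, so that a count of 3 stood for 0.0781 to 0.126 CPM, a floor that covers counting error only. All 33 members passed the filter on low counts. Their counts ran from 849 to 13117 per library for the cytosolic members and from 79 to 1911 for the mitochondrial ones, and the median standard error of the log2 difference was 0.124 for cytosolic and 0.200 for mitochondrial members. The libraries carried strong enterocyte markers, whose summed level over 6 genes was 63927 to 80143 CPM in females and 52940 to 65953 CPM in males. Most of it came from alphaTry, betaTry and Jon65Aiv, and 0 of the 6 genes were called. Jon65Aiv lay higher in every female library and Myo31DF lower, while alphaTry, betaTry, mex1 and nub overlapped between the sexes. Male replicate 3 stood apart from the other male libraries: it held transcripts typical of the male reproductive tract, with Acp36DE at 13.4, Acp26Aa at 3.13, SP at 2.63 and betaTub85D at 2.22 CPM, all at 0 counts in male replicates 1 and 2. Values without this library are given with the results, and the part of these transcripts in them was not tested.

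The transcripts of the cytosolic enzymes were more abundant than those of the mitochondrial ones in both sexes. Per kilobase of annotated exon, which allows levels of different genes to be compared, 18 of the 19 cytosolic members averaged 10.5 to 60.8 CPM per kb over the 6 libraries, and AspRS stood above them at 149. AspRS, the aspartate enzyme, shares 1575 of its 2266 exon bases with genes on the opposite strand, 1448 with the antisense RNA gene asRNA:CR45141 and 127 with the glutamate receptor gene Nmda1. Which strand setting was used in counting is not stated in the labels, so reads of AspRS and of its neighbours cannot be told apart, and its level is uncertain. SerRS for serine at 60.8 CPM per kb and TyrRS for tyrosine at 42.8 followed, and MetRS for methionine was lowest at 10.5. The mitochondrial members ran from 1.82 CPM per kb for ValRS-m to 12.7 for AspRS-m, so the highest mitochondrial level stood just above the lowest cytosolic one.

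**Figure D1:**
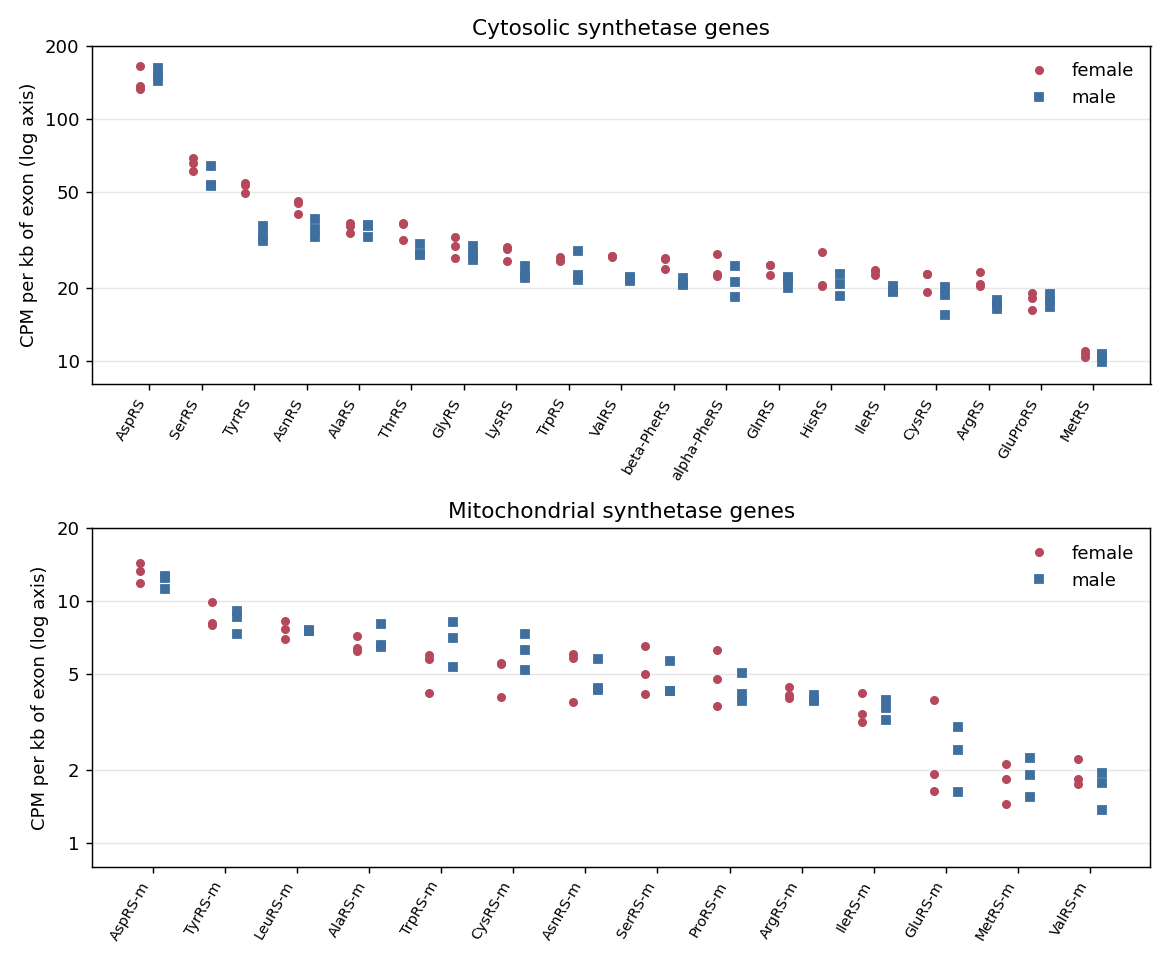
Level of each synthetase gene in each library, in CPM per kb of exon on a log axis, with cytosolic genes in the upper panel and mitochondrial genes in the lower one. Circles are the 3 female and squares the 3 male libraries; AspRS leads at a mean of 149 CPM per kb, and TyrRS is the gene whose female circles lie farthest above its male squares.

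The question set by the design was which of these transcripts differ between the female and the male midgut. Of the 19 cytosolic genes 1, TyrRS, was higher in females and 0 in males, while the other 18 missed the threshold. Over all genes tested, 3.87% were called toward females and 5.53% toward males, 9.39% together, so a single call among 19 genes is near that background. The log2 differences of the cytosolic members nevertheless lay to one side: 18 of 19 were positive, where 47.2% of all genes were, and their median was 0.20 against -0.02 over all genes. The count of positive values was 16 when libraries were scaled by their totals alone and 16 without female replicate 2, and it was 17 without male replicate 3. Of the 14 mitochondrial genes 0 were called in either direction by edgeR, 0 by DESeq2 and 0 by limma-voom, and 0 had an unadjusted p under 0.05 in edgeR. Their median log2 difference was 0.07, with 9 positive and 5 negative values.

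TyrRS (FBgn0027080, arm 3L), which charges the transfer RNA for tyrosine, stood at 95.9, 87.3 and 94.3 CPM in female replicates 1, 2 and 3, against 58.6, 55.3 and 63.8 CPM in male replicates 1, 2 and 3. Every female library lay above every male library, and the lowest female value exceeded the highest male value by more than the range within either sex. The difference was 0.64 ± 0.12 on the log2 scale, a fold of 1.56 (95% interval of the log2 value 0.38 to 0.91, edgeR adjusted p = 0.00672). The annotation places no other gene over its exons. TyrRS was called under each of the 13 alternative settings, with a log2 difference of 0.59 to 0.70, and its largest adjusted p was 0.0474, without male replicate 2. Without male replicate 3 it had a log2 difference of 0.70 (adjusted p = 0.00595). In bulk tissue, fewer cells of a type and less RNA per cell cannot be told apart.

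TyrRS was also set against the other cytosolic members inside each library, which removes any scaling between libraries. Its level relative to each of the 18 others had a higher mean in females in each case, by 0.32 to 0.71 on the log2 scale. Every female library lay above every male library in 16 of the 18 ratios, the exceptions being those to HisRS and alpha-PheRS. TyrRS was chosen for this by its difference, so these ratios are a description without a test.

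ValRS (FBgn0027079), the valine enzyme, had the next smallest p. It stood at 92.0, 91.1 and 92.6 CPM in the 3 female libraries, against 73.9, 75.4 and 72.7 CPM in the 3 male libraries. The values are tight within each sex and do not overlap, and the log2 difference was 0.31 ± 0.11 (edgeR adjusted p = 0.116). In DESeq2 the adjusted p of ValRS was 0.0522, the smallest that any member other than TyrRS reached under any alternative, and its range over the alternatives was 0.0522 to 0.327. ArgRS (FBgn0027093), the X-linked arginine gene, stood at 43.4, 49.8 and 44.1 CPM in females against 34.9, 36.6 and 38.1 CPM in males, a log2 difference of 0.33 ± 0.13 (edgeR adjusted p = 0.160).

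AsnRS, ThrRS and beta-PheRS completed the 6 cytosolic genes with the smallest p. AsnRS (FBgn0086443), for asparagine, had 106, 109 and 96.0 CPM in females and 77.3, 83.3 and 91.3 CPM in males. ThrRS (FBgn0027081), for threonine, had 91.1, 106 and 107 CPM in females and 79.2, 79.7 and 87.8 CPM in males. For both genes the gap between the lowest female and the highest male library was small beside the spread within a sex. beta-PheRS (FBgn0039175), one of the subunits of the phenylalanine enzyme, had 47.1, 51.5 and 52.2 CPM in females and 40.1, 40.9 and 43.0 CPM in males. None of the 3 passed, with log2 differences of 0.31, 0.30 and 0.28 and edgeR adjusted p of 0.177, 0.180 and 0.216.

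**Figure D2:**
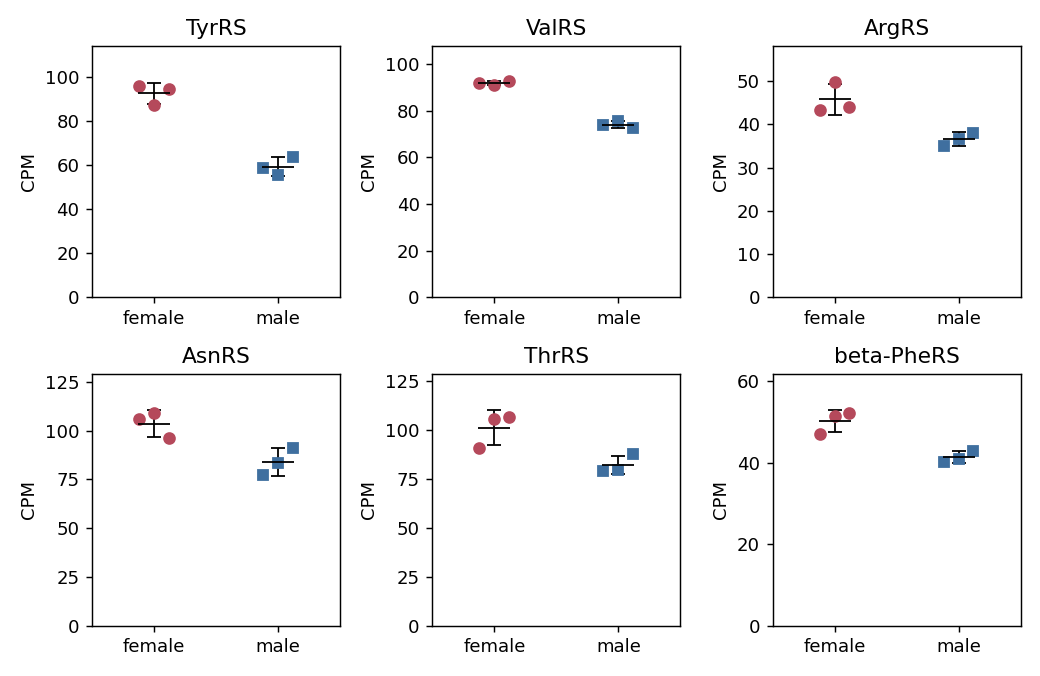
CPM in each library of the 6 cytosolic synthetase genes with the smallest p, on axes that start at 0, with circles for the 3 female and squares for the 3 male libraries and black bars for the mean and SD. The groups do not overlap in any of the 6 panels, and the gap is widest for TyrRS, at 87.3 CPM in the lowest female against 63.8 CPM in the highest male library.

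In all, every female library lay above every male library for 9 of the 19 cytosolic genes, and the reverse held for 0. Among all genes tested 12.4% had libraries placed with females above and 13.9% with females below. Besides the 6 genes above, LysRS for lysine (log2 0.28 ± 0.13), IleRS for isoleucine (0.24 ± 0.11) and GlnRS for glutamine (0.19 ± 0.12) did not overlap, with edgeR adjusted p of 0.230, 0.262 and 0.442. An unadjusted p under 0.05 with a positive difference was reached by 7 of the 19, against 9.57% of all genes. The precision of these genes bounds the size of any difference. The 95% interval of the fold lay within 2-fold in either direction for all 19 genes, against 66.2% of genes tested, and within 1.5-fold for 17 of them, against 37.9%.

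The cytosolic genes with the smallest differences were level between the sexes to within their spread. GluProRS (FBgn0005674), which codes for a fused enzyme that charges transfer RNAs for both glutamate and proline and carries catalytic domains of both classes, stood at 104, 87.9 and 98.9 CPM in females and 96.0, 103 and 90.6 CPM in males. Its log2 difference was 0.01 ± 0.12, with a 95% interval of -0.27 to 0.28, and an antisense transcript overlaps its exons. AlaRS for alanine (0.03 ± 0.12), MetRS (0.05 ± 0.12) and GlyRS for glycine (0.09 ± 0.13) were of the same kind. MetRS, the lowest cytosolic gene per kilobase, had 35.2, 36.2 and 37.3 CPM in females and 35.1, 33.5 and 36.1 CPM in males, overlapping in a narrow range. AspRS, the highest, had 310, 376 and 302 CPM in females and 367, 324 and 342 CPM in males. It overlapped too, and its log2 difference of -0.06 ± 0.15 was the one negative value among the cytosolic genes. Between these and the leading genes came CysRS, SerRS, alpha-PheRS, HisRS and TrpRS, with log2 differences of 0.12 to 0.25 and overlapping libraries. HisRS shares exon sequence with the same-strand gene Bx.

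Enzyme class and place in the complex were set side by side. The 8 class I cytosolic genes had a median log2 difference of 0.25, and the 10 class II genes had a median of 0.19, with positive values in 8 of 8 and in 9 of 10. The 7 members whose mammalian counterparts belong to the multi-synthetase complex (ArgRS, AspRS, GlnRS, GluProRS, IleRS, LysRS and MetRS) had a median of 0.19, and the 12 others had a median of 0.23. TyrRS is among the 12 others. The 4 X-linked genes, ArgRS, HisRS, LysRS and alpha-PheRS, had a median of 0.23 and log2 differences of 0.16 to 0.33. These medians are descriptions, and no difference between the groups of genes was tested. The 13 cytosolic genes without any exon shared with another annotated gene had a median of 0.28, and 13 of 13 were positive.

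**Figure D3:**
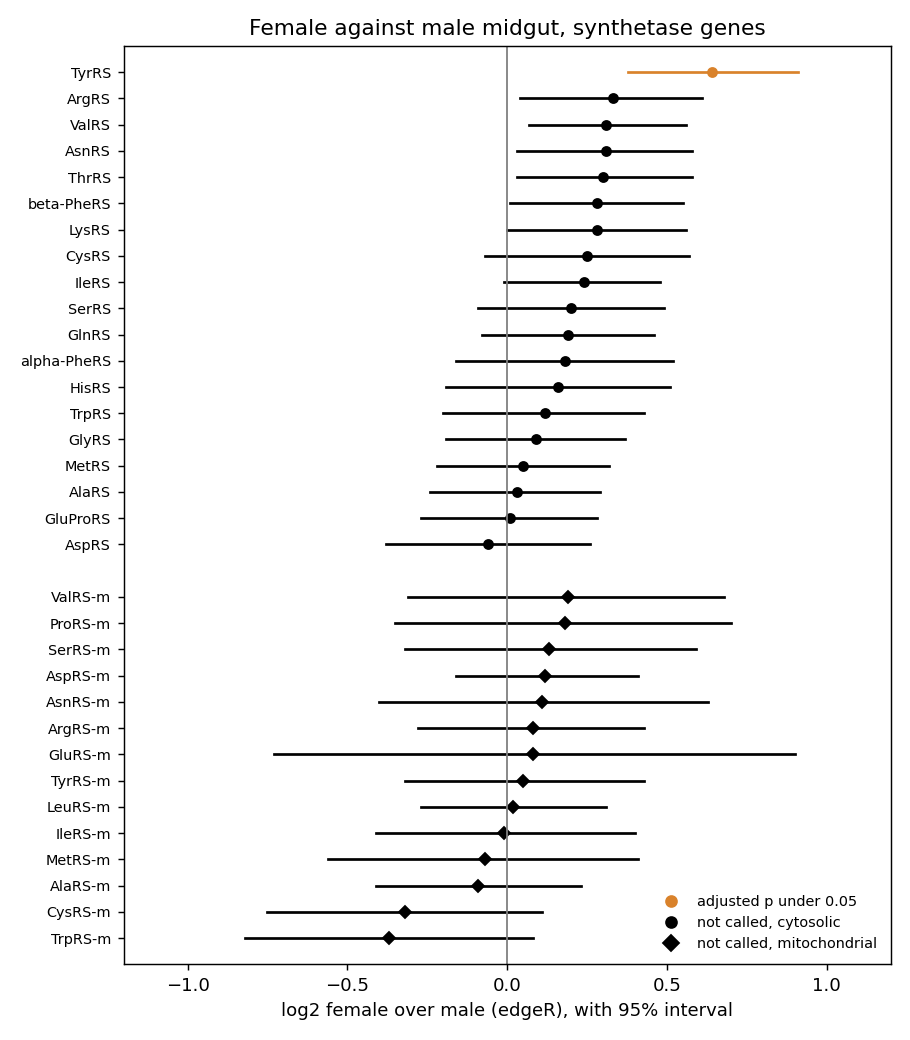
Log2 female over male with its 95% interval for each synthetase gene, cytosolic genes (circles) above and mitochondrial genes (diamonds) below, ordered by difference within each block. TyrRS at 0.64 is the one gene called (orange); 18 of 19 cytosolic points lie right of 0, and the mitochondrial points run from -0.37 to 0.19.

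The subunits of the cytosolic phenylalanine enzyme, alpha-PheRS and beta-PheRS, are needed in equal number, as the enzyme holds a pair of each. Per kilobase, alpha over beta averaged 0.94 in females and 1.01 in males. On the log2 scale that ratio was -0.11, 0.06 and -0.22 in female replicates 1, 2 and 3, and -0.15, 0.02 and 0.17 in male replicates 1, 2 and 3. The sexes overlapped (exact two-sided permutation p = 0.5), a test that compares the sexes and does not address equality of the subunits. By annotated exon length the log2 ratio ran from -0.22 to 0.17 over the 6 libraries.

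Among the mitochondrial genes, TrpRS-m for tryptophan had the smallest p. It stood at 14.9, 10.3 and 14.3 CPM in females against 13.2, 17.4 and 20.4 CPM in males, overlapping values with a log2 difference of -0.37 ± 0.20 (edgeR adjusted p = 0.352). CysRS-m for cysteine had 8.50, 11.7 and 11.6 CPM in females and 11, 13.2 and 15.4 CPM in males (log2 -0.32 ± 0.20, edgeR adjusted p = 0.417). CysRS-m, ArgRS-m and SerRS-m share 302, 325 and 356 exon bases with the opposite-strand genes CG13016, mRpS9 and Nagk, so some reads of these pairs may be assigned to the wrong gene. AspRS-m, the most abundant mitochondrial member, had 59.1, 52.6 and 63.6 CPM in females and 55.2, 56.0 and 49.8 CPM in males (log2 0.12 ± 0.13, edgeR adjusted p = 0.690). For each of these genes the sexes overlapped, as they did for all 14 mitochondrial members.

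The other 11 mitochondrial genes had log2 differences of -0.09 to 0.19. ValRS-m, the least abundant per kilobase, had 7.21, 5.69 and 6.01 CPM in females against 4.46, 5.79 and 6.36 CPM in males (log2 0.19 ± 0.23). GluRS-m for glutamate had the widest interval, a log2 value of -0.73 to 0.90. It stood at 3.27, 6.64 and 2.79 CPM in females and at 2.76, 5.12 and 4.14 CPM in males, so the sexes overlapped, with female replicate 2 above every male library. LeuRS-m for leucine averaged 23.1 ± 1.96 CPM over females against 22.8 ± 0.150 CPM over males (SD, n = 3 each). The 95% interval lay within 2-fold for all 14 genes and within 1.5-fold for 7 of them. For the other 7 the interval reached past 1.5-fold, so a difference of that size is not excluded.

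Where an amino acid has an enzyme in each compartment, the ratio of the transcripts within a library does not depend on library scaling. In 13 such pairs the cytosolic gene was the more abundant per kilobase in every library, and the mean ratio within a sex ran from 2.90-fold for CysRS over CysRS-m in males to 14.0-fold for ValRS over ValRS-m in females. The mean log2 ratio was higher in females in 10 of the 13 pairs. TyrRS over TyrRS-m had log2 ratios of 2.45, 2.63 and 2.72 in females and 1.86, 1.86 and 2.30 in males, which is 6.05-fold in females and 4.02-fold in males. CysRS over CysRS-m was 4.34-fold in females and 2.90-fold in males, and TrpRS over TrpRS-m was 4.99-fold in females and 3.55-fold in males. For these 3 pairs and for ArgRS every female library lay above every male library, which gives an exact two-sided permutation p of 0.1, the smallest that 3 against 3 allows. Adjusted over the 13 pairs, the smallest p was 0.325, so none of the pairs passed. TyrRS-m itself had a log2 difference of 0.05 ± 0.17.

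**Figure D4:**
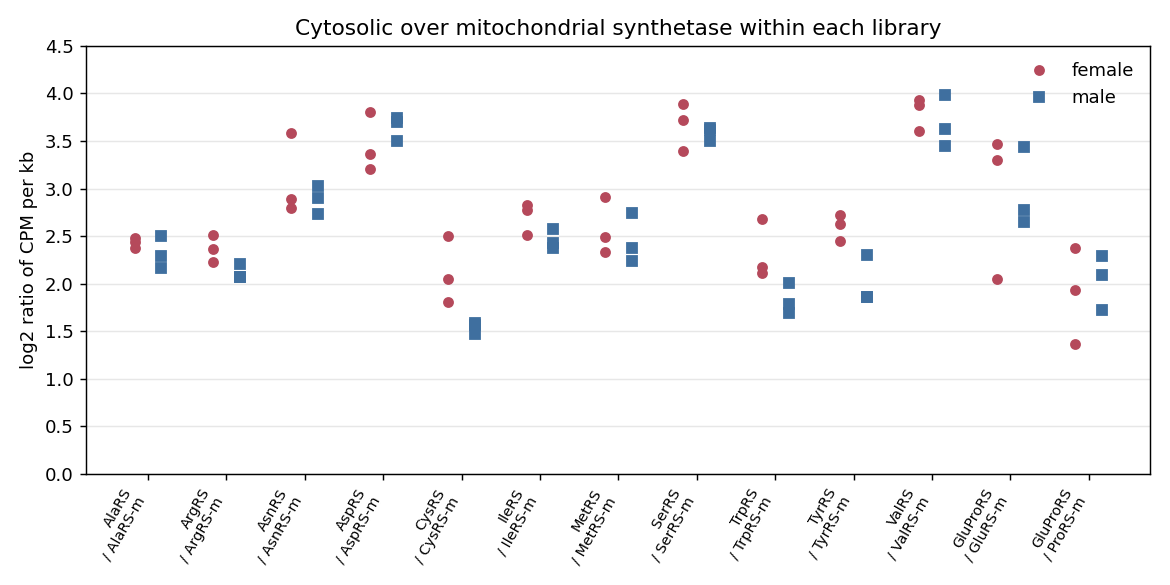
Log2 ratio of the cytosolic to the mitochondrial synthetase of an amino acid within each library, from CPM per kb of exon, with circles for the 3 female and squares for the 3 male libraries. All points lie above 0; the sexes do not overlap for ArgRS, CysRS, TrpRS and TyrRS, while for GluProRS, which serves for 2 amino acids, they do.

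The share of all counts taken by the 19 cytosolic genes was 0.169%, 0.162% and 0.164% in female replicates 1, 2 and 3, against 0.150%, 0.154% and 0.157% in male replicates 1, 2 and 3. The sexes did not overlap, although the gap between female replicate 2 and male replicate 3 was narrow. The 14 mitochondrial genes took 0.0213%, 0.0188% and 0.0214% in females and 0.0200%, 0.0222% and 0.0211% in males, and overlapped. These sums were not tested, since the genes were chosen as a list. For comparison in the same fit, the 79 tested cytosolic ribosomal protein genes had a median log2 difference of 0.64. Of them 33 were called higher in females, where 3.87% of all genes were. The 70 tested mitochondrial ribosomal protein genes had a median of 0.03 with 0 called. The TyrRS value thus equals the median of the cytosolic ribosomal protein genes, while the median of the cytosolic synthetases lies between those of the ribosomal lists.

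Libraries differed within a sex in a way shared by many cytosolic members. Male replicate 1 held the lowest value of the 6 libraries for 11 of the 19 cytosolic genes. Male replicate 3 was the one male library that held a highest value, for TrpRS. Female replicates 1, 2 and 3 held the highest value for 5, 8 and 5 genes. Relative to each gene's mean over the libraries, the median log2 level of the cytosolic genes was 0.10, 0.16 and 0.04 in female replicates 1, 2 and 3, and -0.18, -0.10 and -0.03 in male replicates 1, 2 and 3. For the mitochondrial genes the same medians were 0.02, -0.02 and -0.03 in females and -0.11, 0.02 and 0.10 in males, with no separation of the sexes. Without male replicate 3 the median log2 difference of the cytosolic genes was 0.29, and without female replicate 2 it was 0.17.

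**Figure D5:**
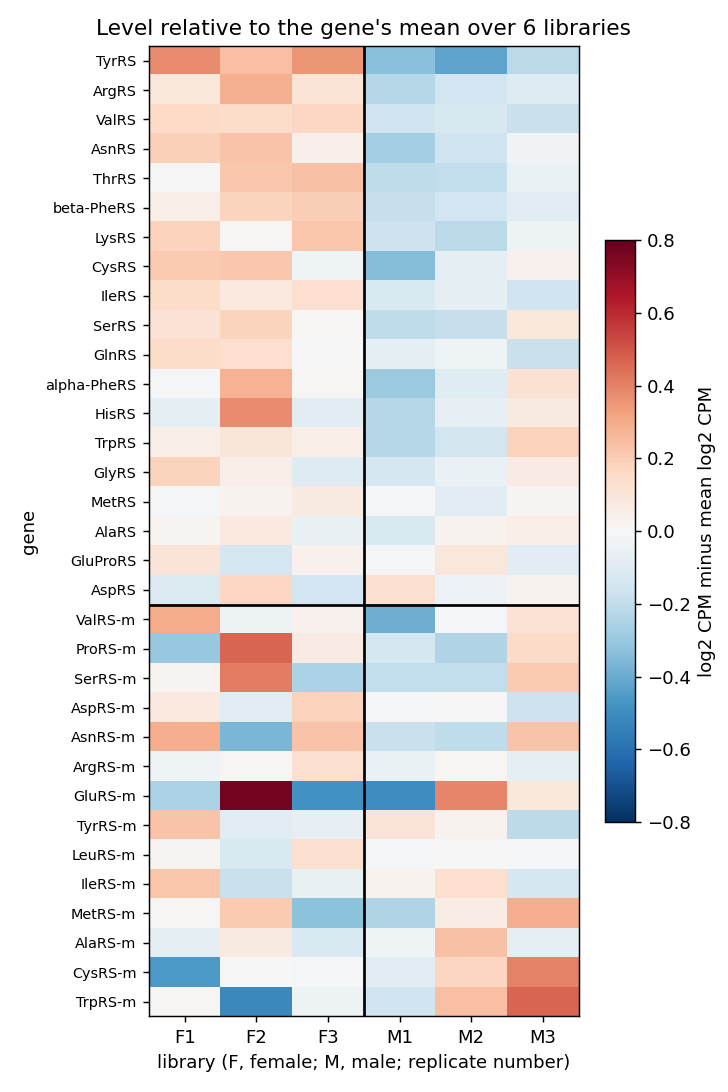
Log2 CPM of each synthetase gene relative to its mean over the 6 libraries, with the 3 female libraries (F1 to F3) left of the 3 male libraries (M1 to M3), cytosolic genes above the black line and mitochondrial genes below it. Most cytosolic genes are red in the female columns and blue in male replicates 1 and 2. Male replicate 3 holds both colours, from -0.213 for TyrRS to 0.184 for TrpRS, and the mitochondrial genes show no division by sex.

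Markers of other cell types were measured in the same libraries, and their part in the synthetase values was not tested. Over all genes tested, 3.87% were called toward females and 5.53% toward males, and the lists are too short to set against these shares. Of 5 enteroendocrine markers 1, Tk, was higher in males, and their summed level was 272 to 311 CPM in females and 359 to 380 CPM in males. Among the uncalled ones, pros (log2 -0.49) and AstC (-0.45) also had every female library below every male library, as for 13.9% of all genes. Dh31 (-0.36) and NPF (0.01) overlapped between the sexes. Of 3 stem cell and enteroblast markers 1, Delta, was higher in males, with summed levels of 14.2 to 15.8 CPM in females and 17.3 to 18.2 CPM in males. The 4 visceral muscle markers summed to 403 to 1015 CPM in females and 567 to 1135 CPM in males, with the lowest sums in female replicate 2 and male replicate 3, and 0 of them were called. Fat body markers summed to 36.9 to 201 CPM in females and 0.161 to 6.95 CPM in males. In females nearly all of this was from the yolk protein genes Yp1 and Yp2. Both lay higher in every female library, as for 12.4% of all genes, with log2 differences of 5.32 ± 1.86 and 5.23 ± 1.70. Neither was called, as their values spread widely within a sex (edgeR adjusted p = 0.219 and 0.184). Lsp2 averaged 0.0276 CPM in females and 0.108 CPM in males, and Fbp1 was at 0 counts throughout. The female excess of the sum thus rests on the yolk protein genes, and Lsp2 and Fbp1 were too low to show a difference. Of 3 Malpighian tubule markers only 1, Irk2, had enough counts to be tested. It was called higher in males (30.1 ± 3.49 CPM in females, 49.8 ± 8.25 CPM in males), while Uro and salm had at most 9 counts in any library. Of the 5 ovary markers only 1, otu, had enough counts to be tested, and it was called higher in males. The other ovary markers had at most 9 counts in any library, with bam at 0 counts throughout. The 3 testis markers were at 0 counts in females and at 0.0914 to 3.91 CPM in males, the highest in male replicate 3. The 4 accessory gland markers summed to 4.28 to 33.6 CPM in females and 6.25 to 36.9 CPM in males. In every library but male replicate 3, nearly all of that sum was EbpIII. Hemocyte markers summed to 0.332 to 2.29 CPM in females and 0.488 to 2.16 CPM in males, with He at 0 counts throughout, and crop and hindgut markers to 1.18 to 4.02 CPM in females and 3.31 to 4.18 CPM in males.

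Partners of the synthetases showed no call. Of 10 partner genes matched, 9 were tested and edgeR called 0, where 9.39% of all genes were called. A count of 0 among 9 is near that background. Slimp alone had an unadjusted p under 0.05 in edgeR, and DESeq2 gave it an adjusted p of 0.0997. Slimp, which codes for a mitochondrial protein derived from a seryl-tRNA synthetase, had the smallest p. It stood at 4.60, 5.72 and 5.61 CPM in females against 6.55, 8.38 and 9.80 CPM in males. Every female library lay below every male library, as for 13.9% of all genes tested. The log2 difference was -0.63 ± 0.22 (edgeR adjusted p = 0.112). Slimp overlaps Kal1 on the opposite strand. AIMP1, a scaffold protein gene of the complex, had 23.5, 27.2 and 17.6 CPM in females and 14.9, 18.8 and 20.4 CPM in males (log2 0.33 ± 0.19, edgeR adjusted p = 0.364). The scaffold genes AIMP2 and AIMP3 had log2 differences of 0.11 ± 0.18 and 0.20 ± 0.17. GatA and GatB, subunits of the amidotransferase that completes glutaminyl-tRNA in mitochondria, had -0.09 ± 0.17 and -0.03 ± 0.15, and GatC, whose exons overlap those of PolG2 on the same strand, was listed at 0 counts in all libraries. Dtd, a D-aminoacyl-tRNA deacylase gene, had 0.64 ± 0.41, and mEFTu1, for the mitochondrial factor that delivers charged transfer RNA, had 0.21 ± 0.19. eEF1alpha2, a gene for the cytosolic delivery factor, averaged 0.718 ± 0.537 CPM over females against 1.31 ± 0.243 CPM in males (SD, n = 3 each). eEF1alpha1, listed for the same factor, was not matched to an identifier, so these values do not give the level of the factor.

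The genes listed for uncharged transfer RNA and the ATF4 response had log2 differences on both sides of 0, with 7 positive and 4 negative. Of 15 genes listed, 11 were matched and tested, and Gcn1, AsnS, Psat and Phgdh were not matched. Among the 11, 0 were called toward females and 2 toward males, where 3.87% and 5.53% of all genes were. The 2 called genes are for enzymes of serine and glycine synthesis. aay (FBgn0023129), for phosphoserine phosphatase, which makes serine, had 62.9, 55.5 and 50.5 CPM in females against 228, 223 and 138 CPM in males. Every male library held more than double the highest female level, and aay fell by 1.80 ± 0.19 in females on the log2 scale (edgeR adjusted p = 0.00027), a call that held without male replicate 3 (adjusted p = 2.39e-05). Shmt (FBgn0029823), for the hydroxymethyltransferase that interconverts serine and glycine, had 52.0, 59.9 and 49.2 CPM in females against 75.9, 77.2 and 79.4 CPM in males. Its log2 difference was -0.53 ± 0.13 (edgeR adjusted p = 0.0223). Shmt missed the threshold on leaving out female replicate 1 (adjusted p = 0.120), female replicate 3 (0.108) or male replicate 2 (0.0882), and antisense genes overlap its exons.

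The sensor and the transcription factor of that response did not pass. Gcn2 had 34.6, 29.4 and 32.0 CPM in females and 26.7, 27.3 and 24.5 CPM in males (log2 0.29 ± 0.13, edgeR adjusted p = 0.232). eIF2alpha, the substrate of Gcn2, had a log2 difference of 0.35 ± 0.13 (edgeR adjusted p = 0.134), with female libraries above male ones in every case. crc, the ATF4 gene, averaged 607 ± 66.8 CPM over females against 596 ± 30.3 CPM in males (SD, n = 3 each), a log2 difference of 0.03 ± 0.15. As ATF4 is controlled largely at translation, its transcript does not measure the activity of the pathway. Thor, the gene for the translation repressor 4E-BP, had 470, 431 and 372 CPM in females and 429, 222 and 220 CPM in males (log2 0.55 ± 0.25, edgeR adjusted p = 0.241), where male replicate 1 lay among the females. PEK, PPP1R15, Sesn, trbl and Nmdmc had log2 differences of -0.55 to 0.49, none past the threshold. Gcn2 overlaps PNPase and eIF2alpha overlaps rngo on the opposite strand, as do GatA, GatB, AIMP3 and Dtd with other genes.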

How the data were processed

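Per the labels' protocols, stranded mRNA libraries from 500 ng of RNA were sequenced from both ends, with reads of 100 bases. The deposited values are raw counts of reads per gene made by the authors. TopHat2 2.0.11, HTSeq and genome build dm3 are named in the submitters' processing notes, and neither the strand setting nor the annotation release is stated there. Symbols came from a current name table (15002 of 15682 identifiers). Exon lengths, chromosome arms and overlaps came from the Ensembl annotation of BDGP6, another build, so no coordinates are given.

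With R 4.3.3, genes were kept by filterByExpr (minimum count 10, minimum total 15), scaled by TMM and compared with edgeR 4.0.16 (glmQLFTest, robust, sex alone, all 6 libraries). The standard error is the log2 difference over the square root of F, so it restates p. The edgeR steps were also run on simulated counts, but the outcome is not given here and bears on no value above. Alternatives were RLE, library totals, no filter beyond 1 count, 5 CPM in 3 libraries, DESeq2 1.42.0, limma-voom 3.58.1, the replicate number as a block, and leaving out each library.

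Members, lists and tests were chosen with earlier results of these data known. Genes given in full were called members, otherwise the 6 cytosolic and 3 mitochondrial members of smallest p; the highest and lowest per kilobase; and, of each companion list, called genes and the 2 of smallest p. Other genes with values for each library (GluProRS, GluRS-m, Gcn2 and Thor) were picked after their values were seen. No promoter or protein sequence is shown.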

Additional observations from a re-analysis of the deposited data

How the results depend on the processing

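TyrRS remained called higher in females in each of the 13 alternatives (adjusted p of 2.69e-05 in DESeq2 to 0.0474), and no other member was called in any of them. The adjusted p of ValRS was lowest in DESeq2, at 0.0522. Counts of called members were the same under every alternative, at 1 cytosolic gene higher in females. Over all genes, 346 were higher in females, against 552 in DESeq2 and 164 to 419 on leaving out a library: 171 without female replicate 1, 219 without female replicate 3 and 164 without male replicate 2. The median log2 difference of the mitochondrial genes was 0.00 with library totals and 0.02 to 0.06 on leaving out a library. For 12 uncalled members the sign changed in at least 1 alternative, at an adjusted p of 0.608 or more. With library totals, AlaRS stood at -0.03, GluProRS at -0.05, GluRS-m at -0.00 and LeuRS-m at -0.03. GluProRS stood at -0.01 with the 5 CPM filter, and IleRS-m at 0.01 with RLE and with DESeq2. On leaving out a library, the log2 difference ranged as follows: -0.01 to 0.06 for AlaRS, -0.15 to 0.01 for AlaRS-m, -0.17 to 0.00 for AspRS, -0.04 to 0.07 for GluProRS, -0.41 to 0.31 for GluRS-m, -0.01 to 0.24 for HisRS, -0.12 to 0.08 for IleRS-m, -0.04 to 0.08 for LeuRS-m, -0.21 to 0.06 for MetRS-m, -0.04 to 0.35 for ProRS-m, -0.07 to 0.28 for SerRS-m and -0.05 to 0.14 for TyrRS-m. The replicate numbers showed no positive match between the sexes. Deviations of same-numbered female and male libraries correlated at -0.122, -0.18 and -0.0941, lower than those of any differently numbered libraries. These correlations carry no test, as deviations within a sex depend on each other, so pairing is not excluded. With the replicate block, TyrRS stayed called (log2 0.65, adjusted p = 0.0261), the counts over all genes were 261 toward females and 415 toward males, and Shmt was not called (adjusted p = 0.0763). The mitochondrial genes had fewer counts, 79 to 1911 per library against 849 to 13117 for the cytosolic genes, and a higher median standard error, 0.200 against 0.124.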
